A study of Mus musculus with 17 samples.

Results

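Gluconeogenesis and fructose metabolism were followed through 9 genes among the 53313 gene identifiers that all deposited count files had in common. The genes were Pcx, Pck1, Pck2, Fbp1, G6pc, G6pc3, Khk, Sord and Gk, chosen by name for the reactions of their products, and all 9 were found in every file. RNA-seq had been made from 8 cultures of mouse primary tubular epithelial cells (PTEC) and from 9 mouse kidneys. The design asks how cultured cells made senescent by irradiation differ from non-senescent ones, and how the kidney changes between 3, 12 and 24 months of age.

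All animals were wild type mice, of the strain C57BL/6JRj in the paper, which the sample labels spell C57BL/6Rj. Non-senescent (ns) PTEC were 4 cultures at day 6 without irradiation. Senescent (sen) PTEC were 4 cultures at day 16 that had received 10 Gy of γ-irradiation, and since these cultures were also older, an effect of irradiation and one of the longer culture cannot be told apart. The PTEC had been grown in REGM2 medium from collagenase-digested, sieved tubular fragments and are labelled as proximal tubular cells. The kidneys were snap-frozen pieces of the right kidney of males, 3 mice at each age, and hold every cell type of the organ. In such bulk samples fewer cells of a type and less RNA per cell cannot be told apart. Nothing in the labels says that the PTEC cultures came from separate animals, and p-values on them measure the spread between these cultures.

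Total counts ranged from 26963442 to 35409144 in PTEC and rose with age in kidneys, from 37311247 to 49471409 at 3 months, from 54097073 to 59718029 at 12 months and from 62761670 to 66894790 at 24 months. Of 13 proximal tubule markers, all 13 reached a mean level of 1 CPM, the read count scaled by library size, at each kidney age, 8 did so in ns PTEC and 5 in sen PTEC. The summed CPM of these markers was 18330 to 32810 in single kidneys, 172 to 729 in ns PTEC and 190 to 303 in sen PTEC. Lrp2, the endocytic receptor megalin, made up much of the sum in culture, with 160 ± 176 CPM in ns and 177 ± 74.7 CPM in sen PTEC (SD, n = 4). Slc34a1, the phosphate transporter of the proximal tubule, was at 7.18 ± 8.47 CPM in ns PTEC, at 0.0192 ± 0.0247 CPM in sen PTEC and at 5125 ± 2129 CPM in 3-month-old kidneys (SD, n = 4, 4 and 3). In culture only part of the 13 markers thus reached 1 CPM, and the name of proximal tubular cells is that of the sample labels.

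Gluconeogenesis makes glucose from lactate, glutamine and glycerol, and besides the liver it is the kidney, in its proximal tubule, that releases glucose made in this way. Pcx (pyruvate carboxylase) turns pyruvate into oxaloacetate, and Pck1 in the cytosol or Pck2 in the mitochondria turns oxaloacetate into phosphoenolpyruvate. Fbp1 removes a phosphate from fructose 1,6-bisphosphate, and G6pc, or the widely expressed paralog G6pc3, removes the phosphate of glucose 6-phosphate. Khk (ketohexokinase) phosphorylates fructose, Sord (sorbitol dehydrogenase) makes fructose from sorbitol, and Gk (glycerol kinase) brings glycerol into the pathway.

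Both steps with a pair of paralogs are shown by their promoters, because Pck1 and Pck2, and G6pc and G6pc3, stood at opposite levels in kidney and culture. The stretches are the part of the 250 bases before the RefSeq start of each gene (GRCm38.p6, plus strand) that also lies before the GENCODE M 21 gene model, at chr2:173152823-173153047 for Pck1, chr14:55540016-55540265 for Pck2, chr11:101367466-101367560 for G6pc, chr11:102189449-102189619 for G6pc3. Capitals mark matches, on either strand, to the letters searched.
Pck1: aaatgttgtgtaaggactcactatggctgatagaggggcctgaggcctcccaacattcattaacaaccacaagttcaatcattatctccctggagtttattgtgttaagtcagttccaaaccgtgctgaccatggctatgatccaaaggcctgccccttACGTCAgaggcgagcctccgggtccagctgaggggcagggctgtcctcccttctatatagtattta
Pck2: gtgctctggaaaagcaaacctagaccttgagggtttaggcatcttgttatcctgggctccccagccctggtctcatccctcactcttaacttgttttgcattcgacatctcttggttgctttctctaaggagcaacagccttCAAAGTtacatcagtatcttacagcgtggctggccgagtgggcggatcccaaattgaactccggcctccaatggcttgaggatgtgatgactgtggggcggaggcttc
G6pc: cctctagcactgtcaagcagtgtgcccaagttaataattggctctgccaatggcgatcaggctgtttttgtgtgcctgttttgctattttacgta
G6pc3: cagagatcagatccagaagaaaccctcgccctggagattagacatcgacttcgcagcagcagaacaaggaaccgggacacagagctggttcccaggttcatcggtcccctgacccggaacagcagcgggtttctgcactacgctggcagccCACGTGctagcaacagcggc
4 motifs were searched in the 250 bases before the RefSeq start, on both strands. These were the core of the cyclic AMP response element (ACGTCA), a core of HNF4 sites (CAAAGT), the E-box (CACGTG) and the motif for TBP, the basal initiation factor (TATAAA). Among 32851 windows of this length, 6.47% held ACGTCA, 12.6% CAAAGT, 6.02% CACGTG and 12.4% TATAAA. The Pck1 window held ACGTCA with its first base 91 bases before the start. The G6pc window held TATAAA at 29 bases, beyond the stretch printed, which has no match. Pck2 had CAAAGT at 108 bases, and G6pc3 had CACGTG at 99 bases and again at 79 bases, the latter beyond the stretch printed. Of the other members, Khk held CACGTG at 71 bases, Gk held CACGTG at 58 bases, and the more upstream window of Pcx held CACGTG at 248 bases. None of the 4 motifs was found in these windows of Fbp1 and Sord.

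Most of these genes were abundant in kidneys and scarce in PTEC. The 9 genes together took 8258 to 10318 CPM in 3-month-old kidneys, 149 to 306 CPM in ns PTEC and 176 to 193 CPM in sen PTEC. Per kilobase of exon, the level at 3 months was highest for Sord, with 1089 ± 76.0 CPM per kb, followed by Fbp1 with 885 ± 151, Khk with 789 ± 88.0 and Pck1 with 486 ± 180 CPM per kb (SD, n = 3). Pcx with 159 ± 44.5, Gk with 109 ± 14.7 and G6pc with 105 ± 27.8 CPM per kb followed, and G6pc3 with 33.7 ± 5.63 and Pck2 with 2.89 ± 0.167 CPM per kb were lowest (SD, n = 3). The exon length was the union over all GENCODE M 21 transcripts, which is 7806 bases for Pck2 and 7743 for Gk, so that a shorter main transcript would raise their levels per kilobase.

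The order of the genes was another one in culture. In ns PTEC, Sord led with 19.7 ± 9.66 CPM per kb, ahead of G6pc3 with 15.02 ± 2.92, Khk with 13.8 ± 11.7 and Pck2 with 7.25 ± 3.15 CPM per kb (SD, n = 4). Fbp1 with 1.10 ± 1.24, Pck1 with 0.398 ± 0.501 and G6pc with 0.109 ± 0.128 CPM per kb were lowest (SD, n = 4). In sen PTEC the widely expressed paralogs led, G6pc3 with 19.4 ± 1.99 and Pck2 with 9.67 ± 1.39 CPM per kb, while Pck1 with 0.0513 ± 0.0445 and Fbp1 with 0.0439 ± 0.0379 CPM per kb were close to the floor (SD, n = 4). G6pc had no read in any of the 4 sen PTEC libraries.

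**Figure D1:**
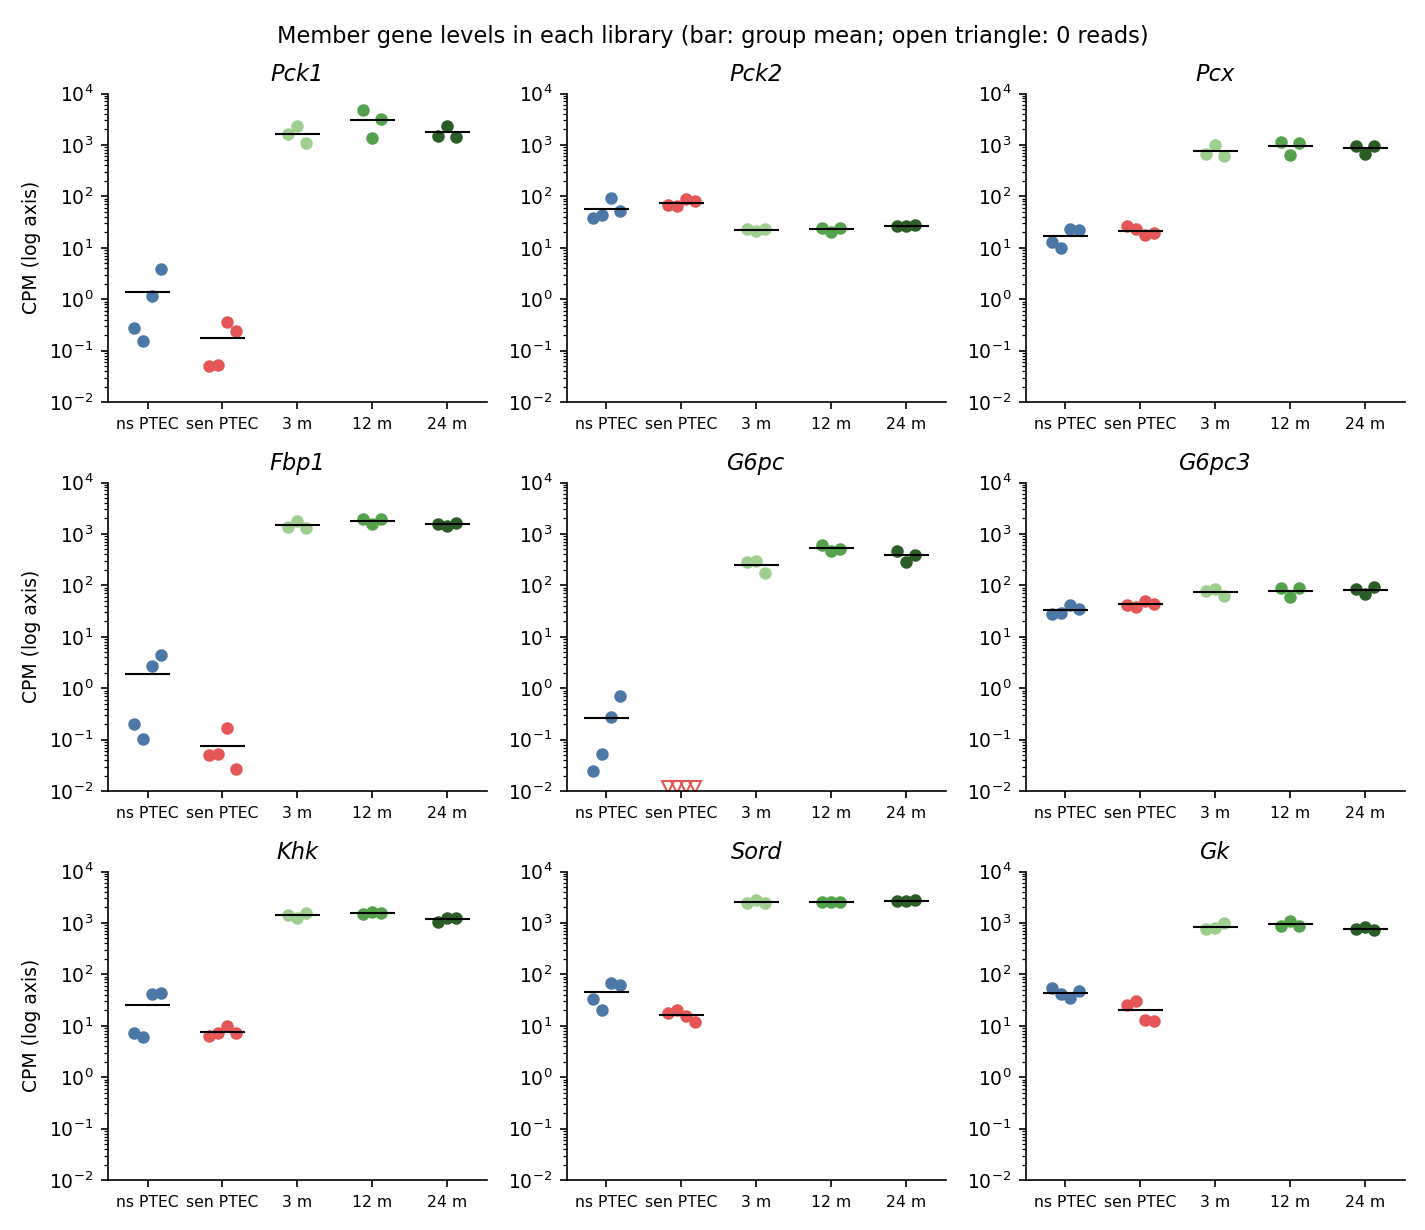
CPM of each gene in each library on a log axis, for ns PTEC, sen PTEC and kidneys of 3, 12 and 24 months (m); points are libraries, bars are group means and open triangles are libraries with 0 reads. Pck2 is the gene whose PTEC libraries all lie above the kidneys, and the 4 sen PTEC libraries of G6pc have 0 reads.

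Across groups, Fbp1, Pck1, G6pc, Khk, Gk and Sord were highest in kidneys, lower in ns PTEC and lowest in sen PTEC by mean CPM. The ranges of ns and sen PTEC overlapped for Fbp1, Pck1 and Khk. Pcx and G6pc3 were also highest in kidneys, but sen PTEC stood above ns PTEC by mean CPM, with overlapping ranges. Pck2 alone had the reverse order, with sen PTEC above ns PTEC, overlapping, and both above all kidneys.

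For the difference between organ and culture, 3-month-old kidneys were set against ns PTEC in a fit of all 17 libraries. A gene was called where the adjusted p of edgeR's quasi-likelihood test was below 0.05 and its log2 fold change exceeded 0.5 in size. All 9 members were called, against 67.5% of all tested genes. 8 members were higher in kidneys and 1 was lower, where 35.5% of all tested genes were called higher and 32% lower. The ranges of both groups did not overlap for any of the 9 members, against 62.5% of all tested genes. The largest differences were those of Pck1, with a log2 fold change of 10.27 (SE 0.923, edgeR adjusted p = 3.9e-08), G6pc with 9.95 (SE 0.615, adjusted p = 4.12e-09) and Fbp1 with 9.68 (SE 0.876, adjusted p = 4.2e-08). In ns PTEC all of them were highest in replicate 4, with 3.85, 0.694 and 4.49 CPM. The other ns cultures had at most 1.18, 0.280 and 2.67 CPM, so the sizes of these differences lean on that culture. Khk was higher in kidneys by a log2 fold change of 5.84 (SE 0.578), Sord by 5.80 (SE 0.356), Pcx by 5.47 (SE 0.336) and Gk by 4.27 (SE 0.294), with edgeR adjusted p from 3.53e-10 to 1.25e-07. G6pc3 was higher in kidneys by only 1.18 (SE 0.187, edgeR adjusted p = 2.87e-05). Pck2 was lower in kidneys, with a log2 fold change of -1.31 (SE 0.241, edgeR adjusted p = 0.000123). Culture and the gene set used for counting changed together here and cannot be told apart, and all 13 proximal tubule markers were higher in kidneys as well. So were 2 of 2 markers of loop of Henle, 6 of 6 of distal tubule and collecting duct and 3 of 3 of podocytes. Of other cell types, 3 of 3 leukocyte, 3 of 4 fibroblast and pericyte, 7 of 8 adipocyte and 1 of 3 endothelium markers were called higher. The part of these cell types in the differences of the members was not tested.

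The paralog pairs changed places between organ and culture. In single kidneys Pck1 per kilobase was 107 to 449 times Pck2. In ns PTEC the ratio was on the other side, with Pck2 at 60.7, 121, 34.3 and 6.02 times Pck1 in replicates 1 to 4. In sen PTEC Pck2 was 608 (95% counting interval 168 to 5024), 541 (150 to 4471), 106 (66.4 to 183) and 149 (78.2 to 325) times Pck1, where the former 2 libraries had 2 reads of Pck1 each. The lowest ratio in culture was that of ns PTEC replicate 4, the culture with the most Pck1 reads. Intervals here are exact binomial ones and cover counting error only.

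For glucose 6-phosphatase, G6pc per kilobase was 2.66 to 3.29 times G6pc3 in 3-month-old kidneys, 5.41 to 7.21 times at 12 months and 3.79 to 4.98 times at 24 months. The ranges of the 3 ages did not overlap, and no test was made of this ratio. Between ages edgeR called neither gene, and the 3-month-old kidneys were counted on another gene set than the older ones. How often ratios of other genes separate in this way was not computed. In ns PTEC G6pc3 was 1220 (95% counting interval 219 to 48230), 591 (163 to 4886), 163 (85.4 to 357) and 54.7 (36.6 to 85.7) times G6pc, with 1, 2, 9 and 24 reads of G6pc. In sen PTEC, with 0 reads of G6pc in each library, G6pc3 was at least 543 to 839 times G6pc when G6pc is set to a floor of 3 reads per library.

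**Figure D2:**
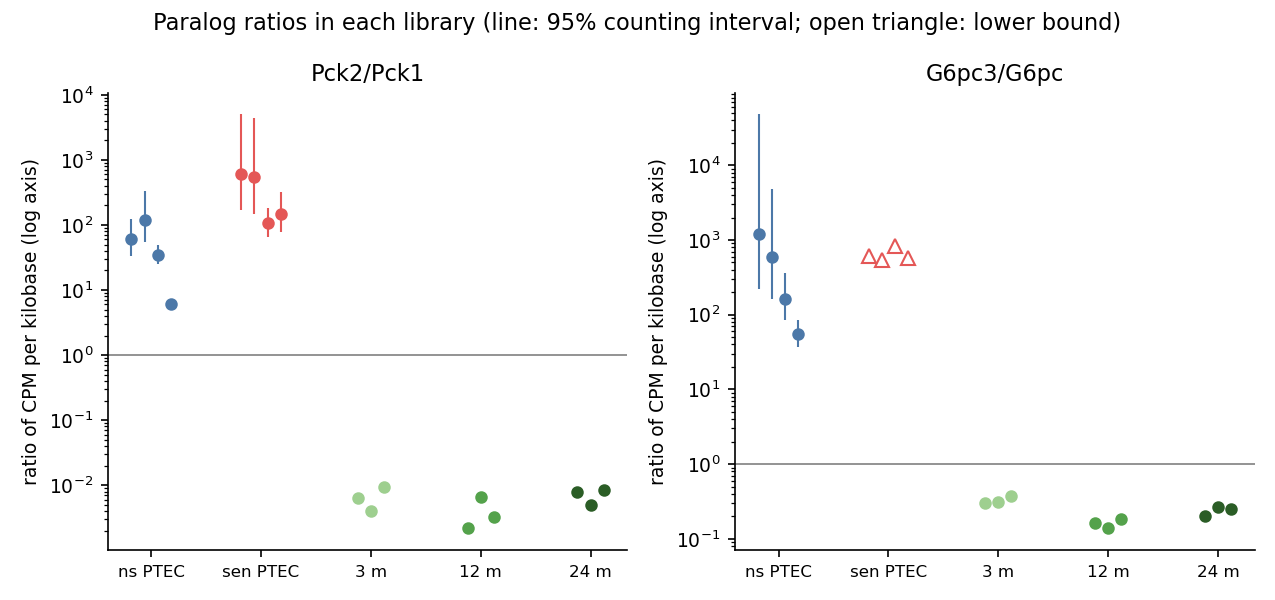
Ratio of Pck2 to Pck1 and of G6pc3 to G6pc, per kilobase of exon, in each library on a log axis, with lines for the 95% counting interval and open triangles for lower bounds where G6pc had 0 reads. All PTEC libraries lie above 1 and all kidneys below 1 in both panels.

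In PTEC the comparison asks what changed between ns cultures at day 6 and sen cultures at day 16. Sord and Gk, the enzymes for sorbitol and glycerol, and Pck1 were lower in sen PTEC, and no member was called higher in the fit without pairing. 7 of the 9 members had enough reads to be tested, and Fbp1 and G6pc did not. 3 of the 7 were called lower, where 19.7% of all tested genes were called lower, 20.1% higher and 39.8% either way. 0 were called higher by edgeR, where 1 of them (G6pc3) had a positive log2 fold change with an unadjusted p under 0.05, and DESeq2 also called 0 higher, where it called 11.5% of its 30570 tested genes higher. With the replicate number as a block, edgeR called 1 member higher, Pck2 (log2 fold change 0.53, adjusted p = 0.0218). Over all genes it then called 3583 higher, in place of 3100.

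Sord was at 33.8, 20.6, 67.8 and 62.7 CPM in ns PTEC replicates 1 to 4, and at 18.03, 20.4, 15.2 and 11.9 CPM in sen PTEC replicates 1 to 4. It fell with a log2 fold change of -1.46 (SE 0.359, edgeR adjusted p = 0.00897). The sen culture was lower under each of the 4 replicate numbers, while the ranges nearly touched, between ns replicate 2 and sen replicate 2, and overlapped when libraries were scaled among the 8 PTEC alone.

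Gk was at 53.5, 41.0, 34.3 and 47.9 CPM in ns PTEC and at 25.1, 29.8, 13.0 and 12.2 CPM in sen PTEC. It fell with a log2 fold change of -1.10 (SE 0.297, edgeR adjusted p = 0.0141). Gk was the 1 tested member whose groups did not overlap in this fit, where 42% of all tested genes did not overlap.

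Pck1 had few reads in any culture. It was at 0.277, 0.157, 1.18 and 3.85 CPM in ns PTEC, from 11, 6, 38 and 133 reads, and at 0.0502, 0.0517, 0.361 and 0.241 CPM in sen PTEC, from 2, 2, 17 and 9 reads. The log2 fold change was -2.88 (SE 1.01, edgeR adjusted p = 0.0428) and the groups overlapped. Replicates 3 and 4 were the higher ones in both groups, and the sen culture was lower under each of the 4 numbers. The call was lost on leaving out ns PTEC replicate 3 (edgeR adjusted p = 0.0597) or 4 (log2 fold change -1.50, adjusted p = 0.185), or sen PTEC replicate 1 (adjusted p = 0.104), 2 (adjusted p = 0.098) or 4 (adjusted p = 0.0792). Without sen PTEC replicate 3 the gene failed the filter on low counts, and without that filter, with all cultures kept, its adjusted p was 0.109.

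Khk was at 7.42, 6.04, 42.1 and 43.9 CPM in ns PTEC and at 6.40, 7.39, 9.92 and 7.20 CPM in sen PTEC. Its level in ns PTEC replicates 3 and 4 was far above all other cultures, while replicate 1 lay within the range of sen PTEC and replicate 2 below it. The log2 fold change was -1.66 (SE 0.613, edgeR adjusted p = 0.0508), short of the threshold. It passed without ns PTEC replicate 1 (log2 fold change -1.97, edgeR adjusted p = 0.0219) or replicate 2 (-1.99, adjusted p = 0.0133), the ns cultures low in Khk, and with DESeq2 (adjusted p = 0.014).

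Fbp1 and G6pc followed the same ns cultures. Fbp1 was at 0.201, 0.105, 2.67 and 4.49 CPM in ns PTEC, from 8, 4, 86 and 155 reads, and at 0.0502, 0.0517, 0.170 and 0.0268 CPM in sen PTEC, from 2, 2, 8 and 1 reads. G6pc had 1, 2, 9 and 24 reads in ns PTEC, a mean of 0.263 ± 0.310 CPM (SD, n = 4), and 0 reads in the 4 sen cultures. A floor of 3 reads over the sen group allows up to 0.0184 CPM, so that G6pc was at least 14.3-fold lower in sen than in ns PTEC and at least 13700-fold lower than in 3-month-old kidneys. Without ns PTEC replicate 4 the ns mean was 0.119 CPM and the bound against it was 6.47-fold. Without the filter on low counts both genes were called lower, Fbp1 with a log2 fold change of -4.51 (edgeR adjusted p = 0.049) and G6pc with edgeR adjusted p = 0.0418.

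The summed CPM of the 13 proximal tubule markers was 172, 174, 320 and 729 in ns PTEC replicates 1 to 4, and 303, 190, 193 and 302 in sen PTEC. Much of that sum was Lrp2, with a log2 fold change of 0.17 (edgeR adjusted p = 0.853). Of the 13 markers 6 were tested, 3 were called lower and 0 higher, where 19.7% and 20.1% of all tested genes were, with a median log2 fold change of -1.28 against -0.0020 over all tested genes. The 3, named after their values were seen, were Slc27a2, a fatty acid transporter, with -3.51 (edgeR adjusted p = 0.0127), Slc5a2, the glucose transporter SGLT2, with -2.41 (adjusted p = 0.0308) and Ggt1, a brush border peptidase, with -1.37 (adjusted p = 0.0252). On leaving out single cultures these calls held in 8, 2 and 3 of 8 fits, and those of Slc27a2 and Ggt1 were lost without the filter. The summed fibroblast and pericyte markers, 4 genes, ranged from 11.1 to 70.3 CPM in ns and from 76.3 to 276 CPM in sen PTEC, and the 2 loop of Henle markers from 4 to 17.6 and from 0.348 to 0.574 CPM. The 6 markers of distal tubule and collecting duct summed to 2.79, 3.71, 3.58 and 17.6 CPM in ns PTEC replicates 1 to 4 and to 0.310 to 1.02 CPM in sen PTEC. The part of these cell types in the differences of the members was not tested.

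The mitochondrial and widely expressed enzymes did not share the fall. Pck2 was at 38.2, 43.2, 92.4 and 52.8 CPM in ns PTEC and at 69.5, 63.6, 87.4 and 81.5 CPM in sen PTEC, with a log2 fold change of 0.45 (95% interval -0.14 to 1.04, edgeR adjusted p = 0.199). Beside the fit with the replicate block, Pck2 was called higher without ns PTEC replicate 3, with 0.80 and edgeR adjusted p = 0.00384. G6pc3 was at 28.3, 28.5, 42.0 and 35.0 CPM in ns PTEC and at 41.9, 38.8, 49.3 and 43.0 CPM in sen PTEC, higher in sen under each of the 4 numbers. Its log2 fold change was 0.40 (95% interval 0.05 to 0.76, edgeR adjusted p = 0.0661), and 0.54 with adjusted p = 0.00959 without ns PTEC replicate 3. In alternatives that kept all cultures the lowest adjusted p of G6pc3, by edgeR or DESeq2, was 0.014. There its log2 fold changes of 0.393 to 0.420 missed the size threshold of 0.5. Pcx was at 13.2, 9.88, 23.4 and 22.3 CPM in ns PTEC and at 26.1, 23.4, 17.5 and 19.6 CPM in sen PTEC, with the groups overlapping and a log2 fold change of 0.37 (95% interval -0.26 to 0.99, edgeR adjusted p = 0.318).

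**Figure D3:**
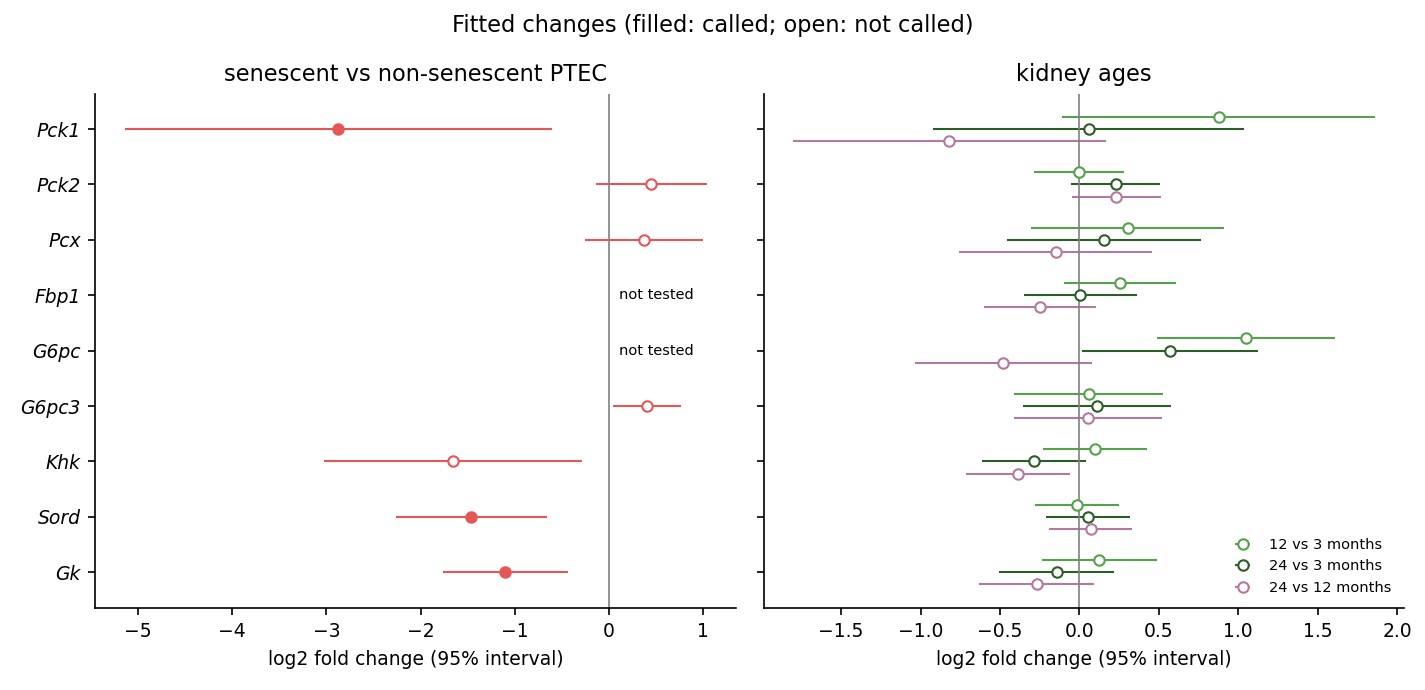
Fitted log2 fold changes with 95% intervals, for sen against ns PTEC on the left and for the kidney ages on the right; filled points passed the threshold. In PTEC the filled points are Pck1, Sord and Gk, all below 0, and among kidney ages no point is filled.

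Between kidney ages edgeR called 0 of the 9 members. Of all tested genes, 1.89% were called higher, 0.451% lower and 2.34% either way at 24 against 3 months. The shares were 1.22%, 1.36% and 2.58% at 12 against 3 months, and 0.896%, 0.434% and 1.33% at 24 against 12 months. In edgeR's test the unadjusted p was under 0.05 for 1 member (G6pc) at 24 against 3 months, for 1 (G6pc) at 12 against 3 months and for 1 (Khk) at 24 against 12 months. DESeq2 called G6pc higher at 12 against 3 months, where it called 1.77% of its 30029 tested genes higher, or 531 against 209 with edgeR. It called 0 members at 24 against 3 and at 24 against 12 months, where it called 3.45% and 2.59% of its tested genes either way. The 3 comparisons share mice, since each age stands in 2 of them. The 3-month-old kidneys were counted on another gene set than the older ones, and in comparisons with them age and gene set cannot be told apart.

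G6pc was at 284, 299 and 176 CPM in the 3-month-old mice, at 614, 459 and 516 CPM at 12 months and at 464, 285 and 394 CPM at 24 months. All 12-month-old mice were above all 3-month-old mice, and the 24-month-old mice overlapped both other ages. The log2 fold change at 12 against 3 months was 1.05 (95% interval 0.49 to 1.61, edgeR adjusted p = 0.0625), and DESeq2 gave 1.04 with adjusted p = 0.00536. At 24 against 3 months it was 0.57 (95% interval 0.01 to 1.13, edgeR adjusted p = 0.265), and at 24 against 12 months -0.48 (95% interval -1.03 to 0.08, adjusted p = 0.396). Under each replicate number G6pc was lower at 24 than at 12 months, and no alternative fit called it between these ages. Among the alternatives other than leaving out single mice, the lowest adjusted p, by edgeR or DESeq2, was 0.0201. Their log2 fold changes of -0.4995 to -0.478 missed the size threshold of 0.5. G6pc was the 1 member whose groups did not overlap at 12 against 3 months, where 20.3% of all tested genes did not. In the same mice the summed leukocyte markers, 3 genes, were 21.2 to 26.2 CPM at 3 months and 39.8 to 43.2 CPM at 12 months. The summed markers of distal tubule and collecting duct, 6 genes, were 1346 to 1657 CPM and 876 to 1116 CPM. Within that list Aqp2, the water channel of the collecting duct, was at 578 and 129 CPM on average, and Slc12a3, the transporter of the distal tubule, at 370 and 514 CPM. The 13 proximal tubule markers overlapped, with 18330 to 29640 and 21510 to 32810 CPM. The part of these cell types in the difference of G6pc was not tested.

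Pck1 varied most between mice of the same age. It was at 1614, 2308 and 1079 CPM at 3 months, at 4785, 1368 and 3177 CPM at 12 months and at 1514, 2339 and 1429 CPM at 24 months. The highest and the lowest 12-month-old mouse lay on either side of all 24-month-old mice. The log2 fold change was 0.88 at 12 against 3 months (95% interval -0.11 to 1.86, edgeR adjusted p = 0.377) and 0.06 at 24 against 3 months (95% interval -0.92 to 1.04, adjusted p = 0.945). At each age the mouse with the least Pck1 had the highest summed CPM of 8 adipocyte markers, 510 at 3 months, 200 at 12 months and 238 at 24 months, where the other mice had 37.1 to 170, 50.7 to 59.8 and 47.7 to 54.5. Fat cells express Pck1 as well, and their part in its level was not tested.

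Fbp1 was at 1383, 1802 and 1332 CPM at 3 months, at 1949, 1574 and 1939 CPM at 12 months and at 1554, 1439 and 1619 CPM at 24 months, with all ages overlapping. Its log2 fold change at 24 against 3 months was 0.0066 (95% interval -0.35 to 0.36, edgeR adjusted p = 0.982). Pcx was at 666, 998 and 606 CPM, at 1116, 644 and 1078 CPM and at 973, 659 and 935 CPM at 3, 12 and 24 months, again overlapping, with a log2 fold change of 0.16 at 24 against 3 months (95% interval -0.45 to 0.76, edgeR adjusted p = 0.739).

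Pck2 was low and narrowly spread, at 23.7, 21.1 and 22.9 CPM at 3 months, 24.3, 20.4 and 23.9 CPM at 12 months and 26.8, 26.1 and 27.9 CPM at 24 months. All 24-month-old mice were above all younger mice, yet the log2 fold change of 0.23 at 24 against 3 months (95% interval -0.05 to 0.51, edgeR adjusted p = 0.343) did not pass. Pck2 was the 1 member whose groups did not overlap at 24 against 3 months, where 22% of all tested genes did not. G6pc3 was at 79.5, 84.7 and 60.9 CPM, 90.9, 58.7 and 87.9 CPM and 86.0, 69.5 and 91.7 CPM at 3, 12 and 24 months, overlapping throughout.

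Khk was at 1458, 1244 and 1552 CPM at 3 months, at 1462, 1606 and 1544 CPM at 12 months and at 1048, 1263 and 1239 CPM at 24 months. All 24-month-old mice were below all 12-month-old mice, and 1 of the 3-month-old mice lay within their range. The log2 fold change at 24 against 12 months was -0.38 (95% interval -0.71 to -0.06, edgeR adjusted p = 0.253). Under each replicate number the 24-month-old mouse was below the 12-month-old one. No alternative fit, with the replicate block or without, called Khk between these ages. Other than on leaving out single mice, its lowest adjusted p, by edgeR or DESeq2, was 0.0417. The log2 fold changes of those fits, -0.395 to -0.380, missed the size threshold of 0.5. Khk and Pck2 were the 2 members whose groups did not overlap there, where 25.6% of all tested genes did not.

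Sord, the most abundant member per kilobase, was also among the steadiest. It was at 2462, 2768 and 2454 CPM at 3 months, at 2584, 2598 and 2524 CPM at 12 months and at 2613, 2695 and 2814 CPM at 24 months, with a log2 fold change of 0.06 at 24 against 3 months (95% interval -0.21 to 0.32, edgeR adjusted p = 0.785). On the scale of all 17 libraries its 24-month-old mice lay just above the 12-month-old ones, and they overlapped when kidneys were scaled alone. Gk was at 767, 793 and 976 CPM, 857, 1073 and 873 CPM and 753, 849 and 736 CPM at 3, 12 and 24 months, with a log2 fold change of -0.14 at 24 against 3 months (95% interval -0.50 to 0.22, edgeR adjusted p = 0.609).

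**Figure D4:**
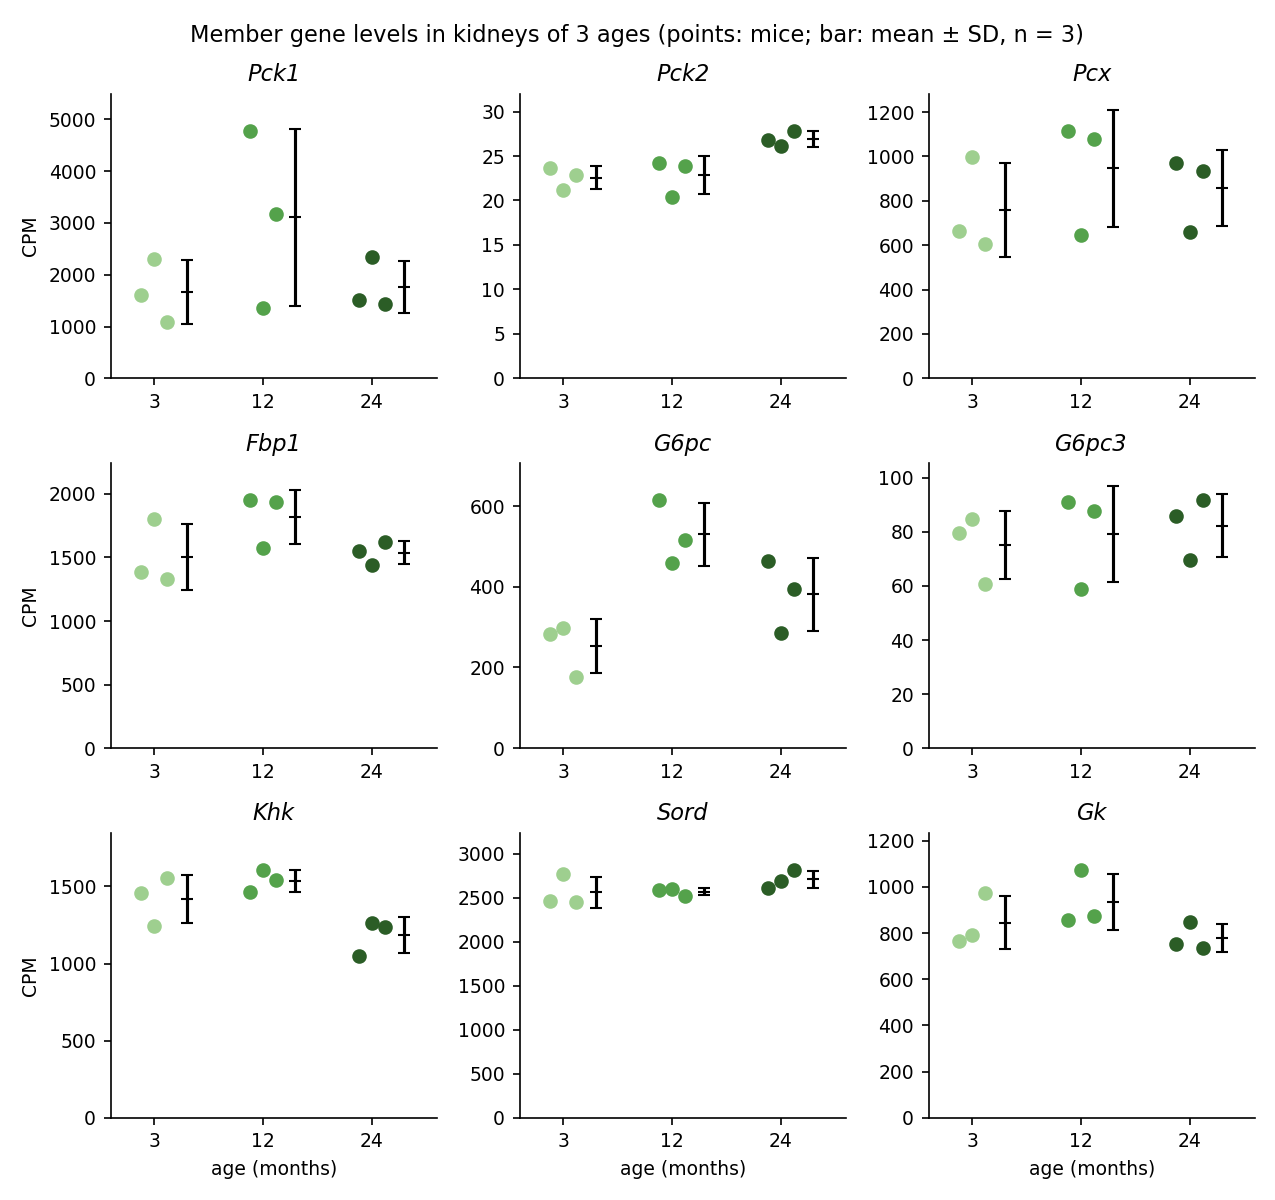
CPM of each gene in single kidneys by age in months (3, 12 or 24); points are mice, and bars are the mean ± SD of 3 mice. The 12-month-old mice of G6pc (459 to 614 CPM) lie above those of 3 months (176 to 299 CPM), and Pck1 at 12 months spreads from 1368 to 4785 CPM.

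The partners of these enzymes were read from 6 further lists. Among 8 fructose and polyol partners, 7 were tested in PTEC, 5 were called lower, where 19.7% of all tested genes were, and 2 not called, with a median log2 fold change of -2.23 against -0.0020 over all tested genes. Of the 5, the call of Tkfc, a triokinase of fructose metabolism chosen here after its values were seen, was lost with the replicate block and without the filter, and held in only 3 of 8 fits without 1 culture (edgeR adjusted p from 0.00501 to 0.0666). Slc5a10, a sodium-coupled mannose and fructose transporter, had 33, 24, 596 and 1661 reads in ns PTEC and 3, 0, 2 and 0 reads in sen PTEC (edgeR adjusted p = 0.00323). Its ns replicates 3 and 4 were again the high ones, and the groups did not overlap. The reductases Akr1a1, with a log2 fold change of -0.14, and Akr1b3, which makes sorbitol from glucose, with -0.24, did not pass.

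Of 16 gluconeogenesis partners, which are carriers, shuttles, dehydrogenases and paralogs of the members, 9 were called lower in sen PTEC and 7 not called, with a median log2 fold change of -0.66. Aqp7, a glycerol channel, was lowest with -3.12 (edgeR adjusted p = 0.0193), a call lost without ns PTEC replicate 4 or sen PTEC replicate 1 (adjusted p up to 0.0591), followed by Ldha (lactate dehydrogenase A) with -2.09 (adjusted p = 6.39e-05), while Ldhb with -0.06 did not pass. The reversible steps that glycolysis and gluconeogenesis share were called lower in 6 of 7 genes, with Eno1 (enolase) at -1.45 (edgeR adjusted p = 0.000586) and Tpi1 (triosephosphate isomerase) at -1.43 (adjusted p = 0.000711). The opposing glycolytic steps, 15 genes of hexokinases, phosphofructokinases and pyruvate kinases and of the enzymes that regulate them, held 6 lower and 1 higher. Over all tested genes 19.7% were lower and 20.1% higher. Hkdc1 with -1.96 and Pfkfb1 with -1.94 were lowest, and Pfkm, the muscle type phosphofructokinase, rose by 0.73 (edgeR adjusted p = 0.00357).

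Of 6 genes from glutamine to ammonia, 2 were called lower in sen PTEC, where 19.7% of all tested genes were, with Gls2, the liver type glutaminase, at -2.82 (edgeR adjusted p = 8.24e-05). Of 18 regulators, 6 were called lower and 2 higher, where 19.7% and 20.1% of all tested genes were. Hnf4a, a nuclear receptor of liver and proximal tubule, was at 82.3 ± 16.7 CPM in ns and at 10.2 ± 1.07 CPM in sen PTEC (SD, n = 4), with a log2 fold change of -2.98 (edgeR adjusted p = 3.62e-06). Cebpa with 0.74 (edgeR adjusted p = 0.0379) and Foxo3 with 0.53 (adjusted p = 0.0274) were called higher, and each call held in only 2 of 8 fits without 1 culture, with adjusted p up to 0.0974 and 0.0771.

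**Figure D5:**
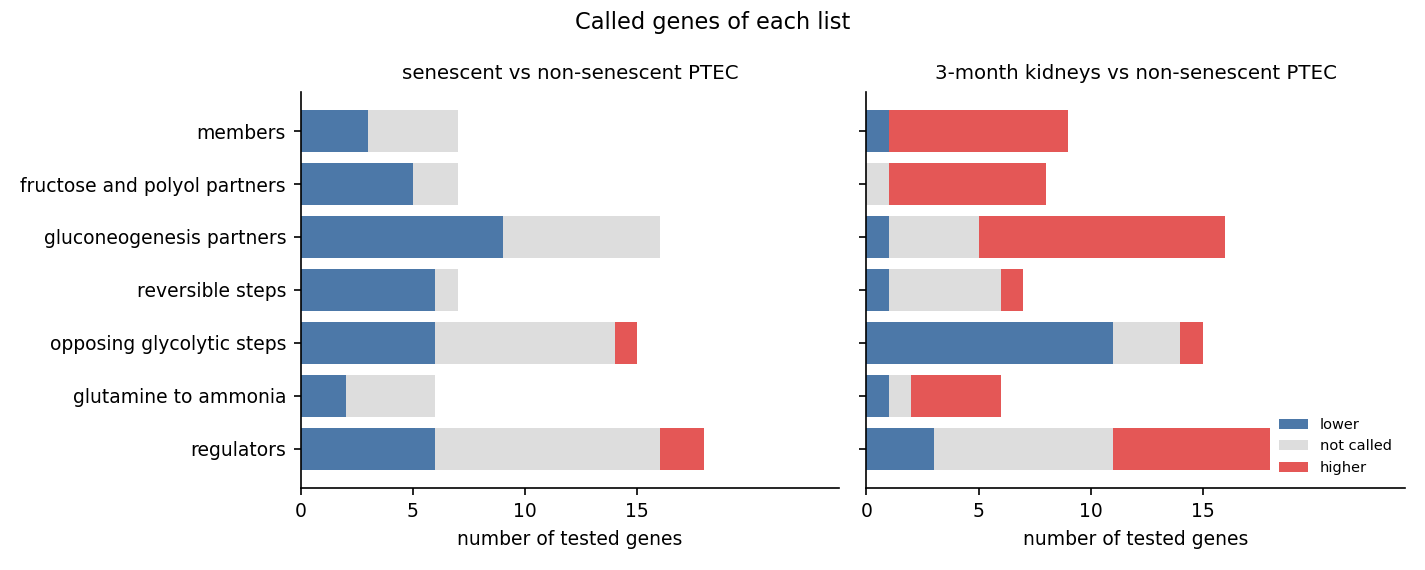
Number of tested genes called lower, not called and called higher in each list, for sen against ns PTEC on the left and for 3-month-old kidneys against ns PTEC on the right. In kidneys against ns PTEC the members and the fructose and gluconeogenesis partners are mostly higher, and 11 of 15 opposing glycolytic genes are lower.

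Set against ns PTEC, 3-month-old kidneys had 7 of 8 fructose and polyol partners and 11 of 16 gluconeogenesis partners called higher, and 1 of the latter lower, where 35.5% and 32% of all tested genes were. The median log2 fold changes were 3.79 and 2.42, against 0.05 over all tested genes. The opposing glycolytic steps stood the other way, with 11 of 15 lower and 1 higher. Hk2, the inducible hexokinase, was lower in kidneys by a log2 fold change of -6.58 (edgeR adjusted p = 2.2e-10) and Hkdc1 by -3.79 (adjusted p = 2.45e-07), while Pfkm was higher by 1.39 (adjusted p = 0.000168). The reversible steps were mixed, with Tpi1 higher by 0.75, Eno1 lower by -1.09 and 5 of 7 not called. From glutamine to ammonia 4 of 6 were higher, with the glutamine transporter Slc38a3 with 6.54 (edgeR adjusted p = 2.31e-07), and Gls2 was lower with -3.31 (adjusted p = 6.26e-06). Of the regulators 7 of 18 were higher, near the 35.5% of all tested genes, and 3 lower, with Klf15 (log2 fold change 5.03, edgeR adjusted p = 4.76e-09) and Cebpa (3.41, adjusted p = 3.04e-09) on top.

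Between kidney ages few partners were called. Fbp2, the paralog of Fbp1 known from muscle, was at 12.0, 12.2 and 13.8 CPM at 3 months, 14.4, 14.1 and 13.3 CPM at 12 months and 28.6, 32.8 and 29.1 CPM at 24 months. All 24-month-old mice were above all younger ones, and Fbp2 rose at 24 against 3 months by a log2 fold change of 1.23 (SE 0.128, edgeR adjusted p = 0.00243) and at 24 against 12 months by 1.11 (SE 0.127, adjusted p = 0.0181). The former call held in all 6 fits without 1 mouse and with the replicate block. The latter was lost with the replicate block in the fit of all ages (edgeR adjusted p = 0.0958) and held in only 1 of 6 fits without 1 mouse (adjusted p from 0.0435 to 0.0956), but with the block in those ages alone its adjusted p was 0.000658. Even then its level was a small part of that of Fbp1. In the same mice the summed leukocyte markers, 3 genes, were 21.2 to 26.2 CPM at 3 months, 39.8 to 43.2 CPM at 12 months and 47.4 to 66.9 CPM at 24 months. The 4 fibroblast and pericyte markers summed to 86.0 to 131 CPM, 113 to 141 CPM and 150 to 210.1 CPM. Between 12 and 24 months the 6 markers of distal tubule and collecting duct, with 876 to 1116 and 1202 to 1585 CPM, and the 2 loop of Henle markers, with 3026 to 3942 and 4342 to 5663 CPM, also did not overlap. The part of these cell types in the difference of Fbp2 was not tested. The other calls of edgeR in the 6 lists were Pfkfb4, higher at 12 against 3 months by 0.71 (edgeR adjusted p = 0.047), and Pfkp, higher at 24 against 12 months by 0.93 (adjusted p = 0.0443). Neither held without any 1 mouse (adjusted p from 0.0676 to 0.182 and from 0.09 to 0.166) or with the block in the fit of all ages (0.144 and 0.162), while Pfkp passed with the block in those ages alone (0.00095). Among the proximal tubule markers 3 of 13 were higher at 24 against 3 months, where 1.89% of all tested genes were, with Slc5a2 at 1.88 (edgeR adjusted p = 0.00997) and the lactate transporter Slc5a12 at 1.56 (adjusted p = 0.0279). The call of Slc5a2 was lost without 3-month replicate 1 (edgeR adjusted p = 0.078) and with the replicate block (0.0548). Those of Slc5a12 and of Miox, the other marker called, held in only 1 of 6 fits without 1 mouse (adjusted p up to 0.16 and 0.189) and were lost with the block. The block in the fit of all ages joins 3-month-old mice to older ones by number, although their values did not go together.

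The genes most like each member were looked for among 8767 genes whose mean level reached 10 CPM, by Pearson's r of log2 CPM over the 9 kidneys. These values describe mice that share age, depth and composition, and with so many genes high values are common. Closest to Fbp1 was Tmem144 (r = 0.996), to Pck1 Dusp7 (0.969), to Pck2 Igfbp7 (0.946), to G6pc Fnip2 (0.969) and to G6pc3 Arpc2 (0.994). Closest to Khk was Ift43 (0.987), to Pcx Aco1 (0.988), to Gk Ppp2r3c (0.972) and to Sord Ftcd (0.900). No member was among the 3 genes closest to another member.

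On GRCm38 the GENCODE M 21 models lie at chr19:4510472-4621752 for Pcx, chr2:173153048-173159273 for Pck1, chr14:55540266-55551242 for Pck2, chr13:62864753-62888282 for Fbp1, chr11:101367561-101377903 for G6pc, chr11:102189620-102194081 for G6pc3, chr5:30921431-30931248 for Khk, chr2:122234749-122265340 for Sord and chrX:85701937-85776819 for Gk. Pck2 shares 53 exonic bases with the antisense gene Gm10876, which had 0 reads in every library, and Gk shares 84 with the antisense gene Gm14764, which had 0 to 3 reads.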

How the data were processed

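Raw counts per gene had been deposited, made by the authors with nf-core/rnaseq 1.4.2 on GRCm38 from paired-end reads of directional mRNA libraries. The aligner, counter and strand setting are not given in the sources used here. PTEC, 3-month-old and older kidneys were counted on 3 gene sets (53715, 54146 and 55401 identifiers), joined without version. Symbols were taken from GENCODE M 21 (all 53313 shared identifiers matched) and promoters from RefSeq (all 9 members matched). Members and lists were chosen with earlier results of these data known.

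Counts were fitted in R 4.3.3 with edgeR 4.0.16 (TMM, filterByExpr, robust quasi-likelihood test, Benjamini-Hochberg over all genes tested), PTEC and kidneys apart and organ against culture in 1 fit of 17 libraries. CPM were scaled with TMM over all 17 libraries. DESeq2 1.42.0 was an alternative, beside other scaling, no filter, fewer groups, a replicate block and each library left out. Promoters, ratios and figures were made with Python 3.11.15 and matplotlib 3.10.9. All members were named, and of each list up to 2 genes at either end of the log2 fold changes, of which some are not reported here. Floors and counting intervals cover counting error only. Counts differed between replicates by a chi-square per gene of 17.1 to 342 over 21 pairs, so none was a duplicate. The tests were first tried on simulated data.

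The replicate numbers are in the labels. Same-numbered ns and sen PTEC deviated together (r from 0.186 to 0.614), and each ns culture went best with the sen culture of its number. For 12- and 24-month-old kidneys, which are different mice, r was 0.172 to 0.557. There 12-month replicate 3 went best with 24-month replicate 1. The main fits left this pairing out, and the replicate block was run as an alternative. Kidneys of 3 months did not deviate together with those of 12 (-0.701 to -0.0486) or 24 months (-0.42 to -0.0336). The replicate block in the fit of all ages still joins them by number.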

Additional observations from a re-analysis of the deposited data

How the results depend on the processing

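Member genes called lower in sen PTEC were 6 with DESeq2 in place of 3, with Fbp1, G6pc and Khk added, and 2 to 4 on leaving out single cultures. Over all genes DESeq2 called 3286 lower and 3506 higher in sen PTEC, 10.7% and 11.5% of those it tested, where edgeR called 3044 and 3100. Members called higher were 1 with the replicate block (Pck2) and 0 to 2 on leaving out single cultures. Over all genes 3583 were called higher with the block and 2632 to 3377 on leaving out single cultures. At 12 against 3 months 1 member was called higher with DESeq2 (G6pc). The replicate block changed no other call of a member. The calls of Gk and Sord held in all 8 fits without 1 culture, and all 9 calls of 3-month-old kidneys against ns PTEC held in every alternative. Members whose difference was near 0 changed sign: Fbp1 at 24 against 3 months was -0.0084 with DESeq2 size factors and -0.0038 with DESeq2, and without the filter Pck2 and Sord at 12 against 3 months were 0.023 and 0.0031. Without single mice, log2 fold changes ranged at 24 against 3 months from -0.072 to 0.15 for Fbp1, from -0.20 to 0.36 for Pck1 and from -0.018 to 0.22 for G6pc3. At 12 against 3 months they ranged from -0.051 to 0.071 for Pck2, from -0.043 to 0.041 for Sord and from -0.072 to 0.23 for G6pc3, and at 24 against 12 months from -0.12 to 0.16 for G6pc3 and from -0.36 to 0.0087 for Pcx. The cause of these changes was not tested. Over all genes, calls moved more. At 24 against 3 months they were 322 higher and 77 lower, 102 and 24 with the block, 727 and 308 with DESeq2, and from 52 and 22 to 460 and 334 on leaving out single mice. At 12 against 3 months they were 209 and 232, 52 and 66 with the block, 531 and 576 with DESeq2, 38 and 26 when fitted without the 24-month-old mice, and from 31 and 21 to 249 and 467 on leaving out single mice. At 24 against 12 months they were 153 and 74, 493 and 286 with DESeq2, 0 to 55 and 1 to 8 on leaving out single mice, 0 and 0 with the block in the fit of all ages, and 1297 and 903 with the block in those ages alone, an alternative added after seeing the data. Settings for the partner and marker genes, and the bound of G6pc without single cultures, were also added after seeing the data. Depth limits Pck1, Fbp1 and G6pc in PTEC, which rest on 0 to 155 reads per library.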
